A study of Mus musculus with 6 samples.

Results

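The genes described here are 10 genes of planar cell polarity, the branch of Wnt signalling that works without beta-catenin. They are Vangl1, Vangl2, Celsr1, Celsr2, Celsr3, Prickle1, Prickle2, Scrib, Daam1 and Daam2, taken by symbol from the 32285 genes of the RNA matrices. All 10 were present in all 3 libraries, each under 1 Ensembl identifier. The study set retinas of C57BL/6J mice that overexpress WIF1, a secreted protein that binds Wnt ligands, beside retinas of naïve C57BL/6J mice, in connection with normal-tension glaucoma. WIF1 was delivered by the viral vector AAV2/2 from the CMV promoter, and retinas were taken at 2 weeks and 4 weeks of a time the labels abbreviate as AVI and do not expand. Nuclei of whole retinas dissociated with papain gave 1 single-nucleus multiome library a group, with RNA and open chromatin (ATAC) read from the same nuclei. Each group had 2 eyes, and whether these were pooled is not stated, nor is which of the Wif1 constructs was used or the age of the mice. The control received no vector, so injection, vector and WIF1 cannot be told apart, and with 1 library a group no difference between groups was tested. The intervals below are 95% intervals that cover counting error only.

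In planar cell polarity, cells of a sheet align along the plane of the tissue. The transmembrane proteins Vangl and Celsr, with the cytoplasmic proteins Prickle, Frizzled receptors and Dishevelled, sort to opposite sides of each cell. Celsr proteins are large cadherins that bridge neighbouring cells, and Celsr3 is also known for axon guidance. Vangl and Prickle act together on 1 side of the cell, Scrib is a scaffold of the basolateral membrane that works with Vangl2, and the formins Daam1 and Daam2 link Dishevelled to actin. In the retina the branch is known above all for the polarity and wiring of neurons.

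After filters 7172, 8848 and 8921 nuclei remained in the control, 2-week and 4-week library, with medians of 1635, 800 and 1200 RNA molecules (UMIs) a nucleus. The libraries shared between 142 and 207 cell barcodes with each other. Clusters were named from marker genes as rod-like, cone-like, bipolar-like, amacrine-like, Müller-like and endothelial-like, each with at least 50 nuclei in every library. Pericyte-smooth muscle-like (49, 43 and 55 nuclei), horizontal-like (25, 20 and 0), microglia-like (15, 69 and 15) and lymphocyte-like nuclei (2, 115 and 1) fell below that number. A sub-cluster with 9 ganglion-cell and 7 amacrine markers held 53, 5 and 1 nuclei and stayed unnamed, so no value is given for ganglion cells. RNA of rods was also found in other classes: by the rod marker genes it made up 14.8%, 6.72% and 9.46% of the UMIs of bipolar-like nuclei and 26.9%, 6.14% and 27.7% of those of Müller-like nuclei. The share was 35.8%, 30.5% and 33.7% in cone-like, 14.3%, 6.43% and 10.7% in amacrine-like and 21.6%, 16.0% and 36.7% in endothelial-like nuclei. These shares take all RNA of the rod marker genes in a class as RNA from rods. Whether a class makes some of it itself was not tested, so they may be too high. Levels below are given as CPM, the UMIs of a gene per 1000000 UMIs of its class.

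The counts behind the genes were unequal: over the kept nuclei of the 3 libraries Prickle1 had 16237 UMIs, Prickle2 6511, Daam1 6118, Celsr3 1189, Celsr2 723, Scrib 552, Vangl2 495, Daam2 154, Vangl1 106 and Celsr1 25. UMI totals rise with the length of a gene in nuclear RNA, so gene length enters the order of different genes wherever their CPM are printed together. Levels of different genes were therefore ranked per 100 kb of gene span. On that scale Prickle1 was the highest in rod-like nuclei, with 478, 613 and 513 CPM per 100 kb (control, 2 weeks, 4 weeks; all triplets below keep that order), and Celsr3 came next with 98.7, 138 and 121. In Müller-like nuclei Celsr2 was the highest, with 386, 420 and 407 CPM per 100 kb.

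**Figure D1:**
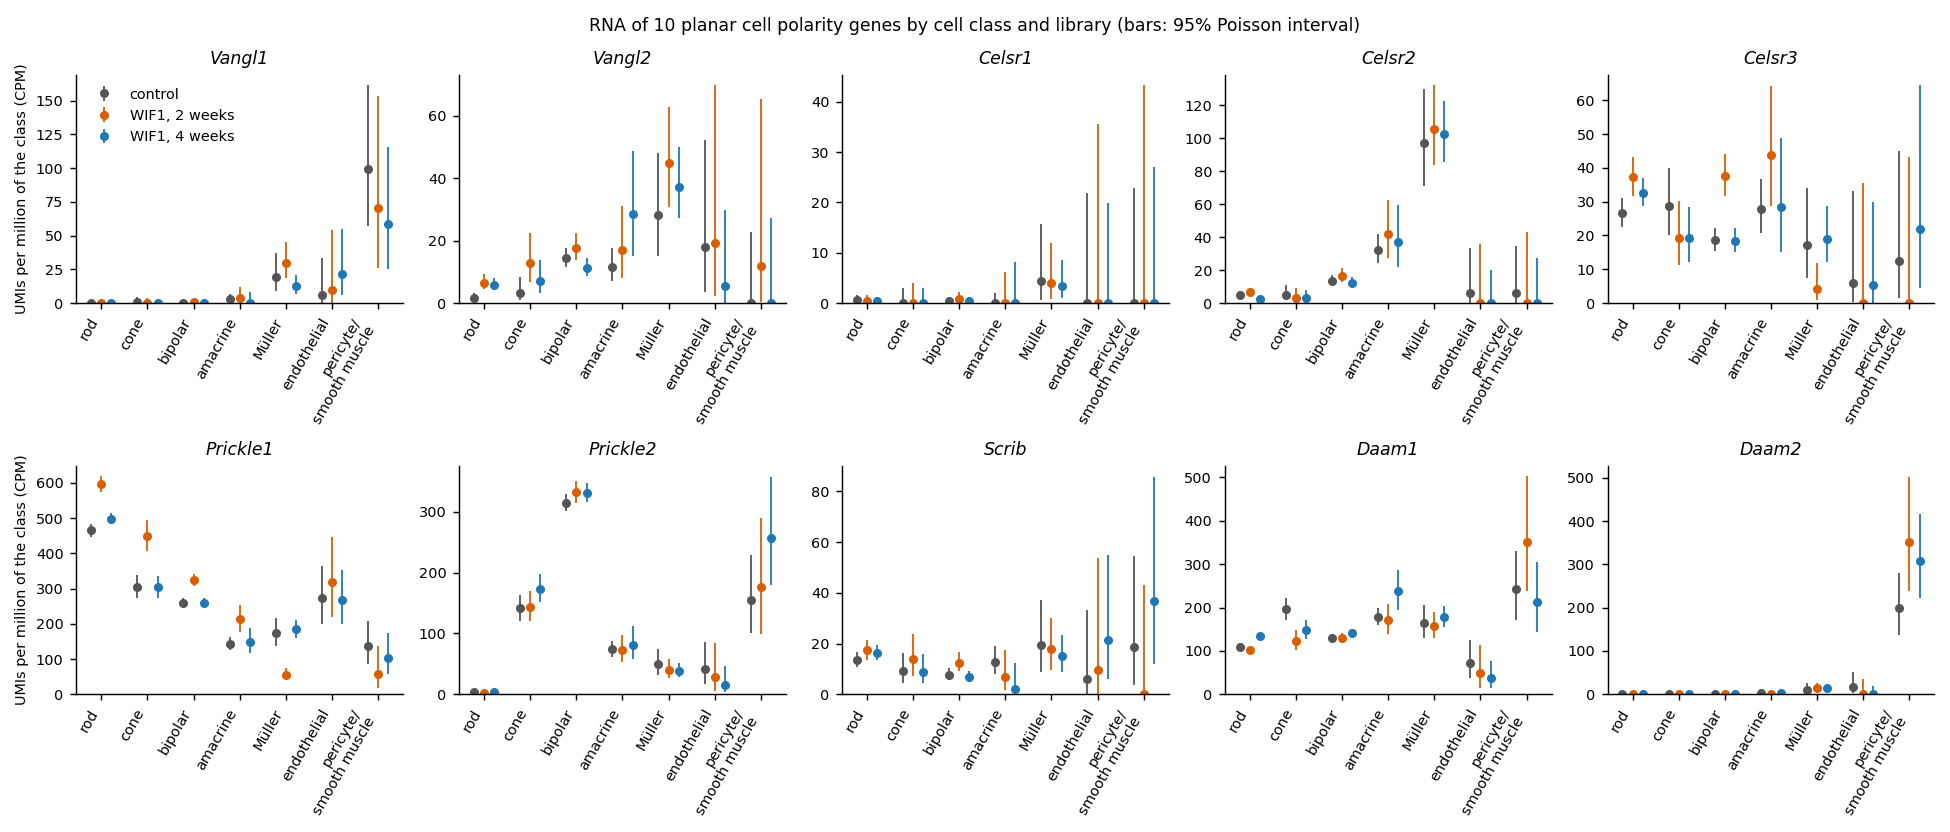
Levels of the 10 genes by cell class in the 3 libraries, as CPM of the class on a linear axis, with bars for 95% Poisson intervals. Prickle2 is near the bottom of its range in rod-like nuclei (4.12, 2.63 and 3.82 CPM) and at its highest of the 6 compared classes in bipolar-like nuclei (315, 332 and 331).

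The members of the Prickle pair differed in which cell classes held their RNA. Prickle2 lies on chromosome 6 (ENSMUSG00000030020, RefSeq span chr6:92370891-92706334, GRCm38.p6) and Prickle1 on chromosome 15 (ENSMUSG00000036158, chr15:93499111-93596266). Both encode cytoplasmic LIM-domain proteins that bind Vangl. Their upstream sequences are shown because the ATAC values below are given start by start for these genes. Each run is the 250 bases before a RefSeq start of GRCm38.p6, printed 5′ to 3′ on the minus strand of the chromosome, which is the strand of the gene. Capitals mark every match, on either strand, to TAATCC (the core bound by photoreceptor homeobox factors such as Crx), GGGCGG (a GC box), TATAAA (a start-site motif) or CTTTGAT (a site of TCF/LEF factors).
Prickle1 outermost start, chr15:93595903-93596152: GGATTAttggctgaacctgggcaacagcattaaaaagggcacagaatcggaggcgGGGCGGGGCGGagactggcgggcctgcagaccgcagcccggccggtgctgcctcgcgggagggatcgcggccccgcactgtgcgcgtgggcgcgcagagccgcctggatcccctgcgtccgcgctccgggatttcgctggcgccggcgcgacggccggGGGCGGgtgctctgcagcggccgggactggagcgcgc
Prickle1 inner start, chr15:93519521-93519770: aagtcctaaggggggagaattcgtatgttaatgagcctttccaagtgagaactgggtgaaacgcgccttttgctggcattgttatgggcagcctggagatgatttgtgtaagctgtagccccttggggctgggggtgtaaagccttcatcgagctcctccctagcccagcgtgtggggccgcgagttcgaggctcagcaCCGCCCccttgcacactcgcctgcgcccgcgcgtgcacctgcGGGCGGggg
Prickle2 outermost start, chr6:92706185-92706434: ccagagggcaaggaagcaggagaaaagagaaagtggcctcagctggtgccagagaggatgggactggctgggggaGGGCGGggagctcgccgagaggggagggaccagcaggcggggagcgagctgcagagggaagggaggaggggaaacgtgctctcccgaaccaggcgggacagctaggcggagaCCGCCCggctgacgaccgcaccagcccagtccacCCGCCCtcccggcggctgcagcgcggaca
Prickle2 middle start, chr6:92534862-92535111: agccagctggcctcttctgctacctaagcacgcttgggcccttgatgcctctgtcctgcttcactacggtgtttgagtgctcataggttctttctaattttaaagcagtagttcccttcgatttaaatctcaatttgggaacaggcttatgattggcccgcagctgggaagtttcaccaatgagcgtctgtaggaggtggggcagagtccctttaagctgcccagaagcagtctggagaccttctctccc
Prickle2 innermost start, chr6:92481393-92481642: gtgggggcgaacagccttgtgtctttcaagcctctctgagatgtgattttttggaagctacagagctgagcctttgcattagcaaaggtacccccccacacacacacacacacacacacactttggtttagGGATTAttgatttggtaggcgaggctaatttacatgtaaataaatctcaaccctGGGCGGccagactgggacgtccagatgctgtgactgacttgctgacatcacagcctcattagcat
The outermost Prickle1 run held 1 TAATCC and 3 GGGCGG, of which 2 overlap, and the inner one held 2 GGGCGG. The outermost Prickle2 run held 3 GGGCGG, the middle one held 0 of the 4 motifs, and the innermost one held 1 TAATCC and 1 GGGCGG. A further Prickle2 run, before the RefSeq start at chr6:92567366, is not printed. It held 2 GGGCGG, which overlap, and 1 CTTTGAT. Among 32851 RefSeq promoters of the same length TAATCC was found in 6.25%, GGGCGG in 32.7%, TATAAA in 12.4% and CTTTGAT in 3.21%. The outermost starts of Prickle1 and Prickle2 were rich in G and C, at 74.0% and 70.0% of bases, against a median of 52.4% over all promoters. The inner Prickle1 run had 60.8%, and the middle and innermost Prickle2 runs had 50.8% and 48.4%.

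Prickle2 RNA was high in bipolar-like nuclei and close to 0 in rod-like nuclei. Bipolar-like nuclei had 315 CPM in the control (301 to 329, 2041 UMIs), 332 at 2 weeks (314 to 351, 1274 UMIs) and 331 at 4 weeks (317 to 347, 1863 UMIs). Rod-like nuclei had 4.12, 2.63 and 3.82 CPM, from 24, 12 and 29 UMIs. The bipolar-like level was 76.5-fold higher in the control (51.3 to 120), 126-fold at 2 weeks (72.1 to 245) and 86.7-fold at 4 weeks (60.2 to 130). Cone-like nuclei followed with 141, 144 and 173 CPM, amacrine-like nuclei with 73.9, 72.6 and 81.3, and Müller-like nuclei with 49.8, 40.7 and 38.1. In all 3 libraries the order among the compared classes was thus bipolar-like, cone-like, amacrine-like and then Müller-like. The small horizontal-like class had 292 CPM in the control (86 UMIs) and 454 at 2 weeks (66 UMIs). The small pericyte-smooth muscle-like class had 155, 176 and 257 CPM (25, 15 and 35 UMIs), above the cone-like level in each library. Microglia-like nuclei had 0 UMIs of Prickle2 in each library.

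Prickle1 was spread more evenly and stood highest in rods, the receptor cells for dim light. Rod-like nuclei had 465 CPM in the control (447 to 483), 595 at 2 weeks (573 to 618) and 498 at 4 weeks (482 to 514). This was 1.79, 1.84 and 1.92 times the bipolar-like level and 1.53, 1.32 and 1.64 times the cone-like level. By its share of the cone-like UMIs, rod RNA would carry along 166, 181 and 168 CPM of Prickle1 there, of 304, 450 and 304 CPM in all. That takes all rod marker RNA in cone-like nuclei as coming from rods, which was not tested. Per 100 kb of gene span Prickle1 lay above Prickle2 in rod-like, cone-like and bipolar-like nuclei. The Prickle1 levels were 268, 333 and 267 CPM per 100 kb in bipolar-like nuclei, and those of Prickle2 were 93.9, 98.9 and 98.8. Without that division the order there was reversed, with 315, 332 and 331 CPM of Prickle2 and 260, 324 and 259 of Prickle1. The scale divides by the whole RefSeq span, 335 kb for Prickle2 and 97.2 kb for Prickle1, whichever start is used. Whether intronic reads were counted is not stated, and the order in bipolar-like nuclei depends on this scaling. In rod-like nuclei Prickle2 had 1.23, 0.783 and 1.14 CPM per 100 kb, beside the Prickle1 values of 478, 613 and 513. When each nucleus was thinned to 500 UMIs, 19.3%, 23.0% and 20.3% of rod-like nuclei held a Prickle1 UMI, against 37.6%, 31.5% and 36.2% without thinning. After the same thinning a Prickle2 UMI was found in 4, 5 and 7 rod-like nuclei and in 14.5%, 15.2% and 14.8% of bipolar-like nuclei (60.8%, 47.0% and 57.8% without thinning).

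Bipolar cells, which carry the signal from rods and cones to ganglion cells, differed among themselves. Among 11 bipolar-like clusters of at least 50 nuclei over all libraries together, cluster 20 had the most Prickle2, with 652, 756 and 642 CPM. Cluster 28 had the least, with 23.0, 39.8 and 42.8 CPM, from only 5, 4 and 10 UMIs. The 28.3-fold, 19.0-fold and 15-fold span thus fell between the same clusters in every library. Clusters 11, 19 and 20, with 488, 513 and 672 CPM over all libraries, were the 3 highest and carried markers of OFF cone bipolar cells, cluster 11 Neto1, Lhx3 and Tacr3, and clusters 19 and 20 Grik1 and Fezf2. Cluster 20 also carried Scgn and Cabp5, which stand in the ON cone list. Markers of the OFF list were not confined to these clusters. Cluster 21 carried Vsx1 and Lhx3, beside Grm6, Isl1, Trpm1 and Scgn of the ON cone list, and had 277, 251 and 272 CPM of Prickle2. Cluster 26 carried Vsx1 and had 201, 294 and 256 CPM. The rod bipolar-marked cluster 14, the largest with 1738 nuclei, had 263 CPM of Prickle2 and 185 CPM of Prickle1. Prickle1 did not follow the order of Prickle2: it was highest in cluster 11 in the control (404 CPM), in cluster 28 at 2 weeks (627) and in cluster 21 at 4 weeks (451). Its lowest levels were 152, 155 and 142 CPM, in clusters 19, 32 and 19. Clusters were built without the members and the other genes of the branch.

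**Figure D2:**
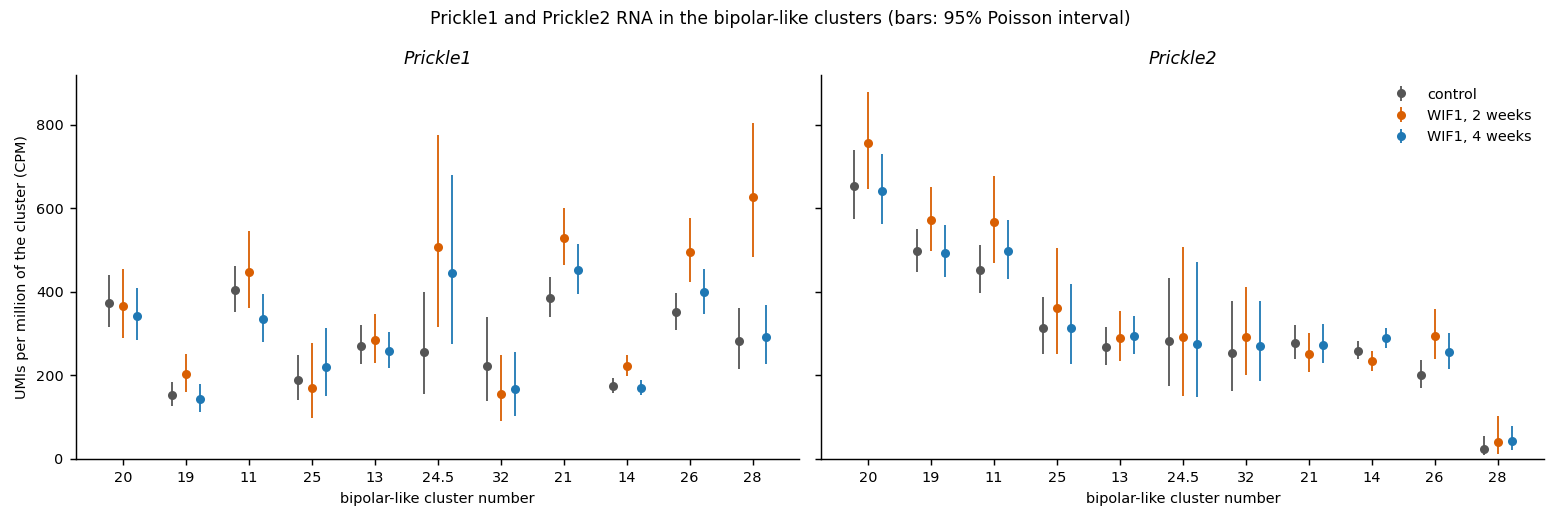
Prickle1 and Prickle2 in the 11 bipolar-like clusters, in CPM by library with 95% Poisson intervals. Cluster 20 is the highest for Prickle2 in each library and cluster 28 the lowest, while cluster 28 stays within the range of the others for Prickle1 except at 2 weeks, when it reaches 627 CPM.

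Open chromatin over the starts also differed between classes, to an extent that varied with the start. The ATAC counts came from the same nuclei, grouped into classes named from their RNA. ATAC levels are given as promoter CPM, the counts in the peak over a start per 1000000 counts in all promoter peaks of the class. The view of single RefSeq starts was added after the data were seen. At the innermost Prickle2 start bipolar-like nuclei had 39.8, 42.6 and 47.6 promoter CPM, and rod-like nuclei held 13, 6 and 15 counts in all. The ratio of bipolar-like to rod-like levels there was 32.6, 187 and 86.5. At the middle start bipolar-like nuclei had 35.2, 29.0 and 34.7 promoter CPM, and Müller-like nuclei held 1, 4 and 11 counts. At the outermost start the order of those classes turned around: Müller-like nuclei had 18.4, 35.4 and 11.8 promoter CPM and bipolar-like nuclei 10.1, 8.80 and 5.85. The pericyte-smooth muscle-like class had 65.6, 71.3 and 66.2 at the outermost start and 60.2, 87.5 and 125 at the middle start, and at the innermost start 71.1, 25.9 and 15.6, from 13, 8 and 4 counts. RNA of Prickle2 in that class was 155, 176 and 257 CPM, from 25, 15 and 35 UMIs. The further RefSeq start of Prickle2, at chr6:92567366, lay in no peak of any library.

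At the outermost Prickle1 start the rod-like and bipolar-like levels differed little, with ratios of 1.08, 1.06 and 1.07. At the inner start rod-like nuclei had 111, 80.8 and 93.1 promoter CPM and bipolar-like nuclei 64.6, 45.4 and 49.8, ratios of 1.72, 1.78 and 1.87. The RNA ratios between these classes were 1.79, 1.84 and 1.92. The peak over the inner start covered 149, 111 and 136 of the 250 bases printed above, and all 250 bases of the other 4 runs lay in a peak in each library.

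**Figure D3:**
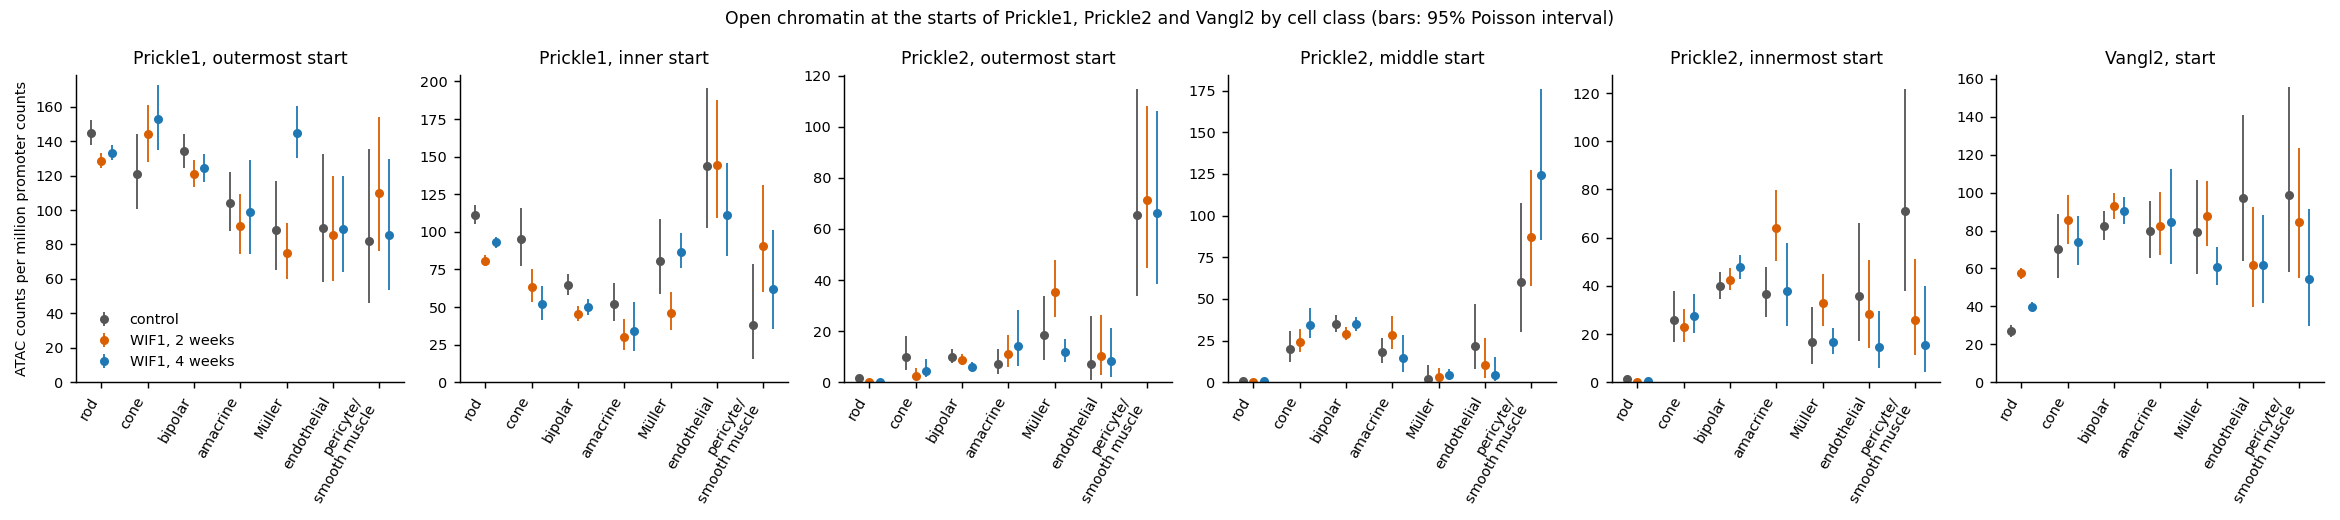
ATAC levels in promoter CPM at the starts of Prickle1, Prickle2 and Vangl2 by cell class and library, with 95% Poisson intervals. Rod-like nuclei are near 0 at the 3 Prickle2 starts, and at the inner Prickle1 start they lie above the bipolar-like nuclei in each library.

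The transmembrane genes of the core had their highest levels in different classes. Celsr2, a cadherin of the core complex (ENSMUSG00000068740, chr3:108390848-108416069), was highest in Müller-like nuclei (Müller cells are the retina's radial glia). Its level there was 97.4 CPM in the control (71.0 to 130, 45 UMIs), 106 at 2 weeks (83.7 to 132, 78 UMIs) and 103 at 4 weeks (85.4 to 122, 124 UMIs). The intervals of the 3 libraries overlapped. Amacrine-like nuclei came next with 32.3, 42.2 and 37.3 CPM, and bipolar-like nuclei had 13.6, 16.4 and 12.3. The Müller-like level was 3.02, 2.51 and 2.75 times the amacrine-like level. Rod RNA took 26.9%, 6.14% and 27.7% of the Müller-like UMIs, and rod-like nuclei had 4.63, 6.56 and 2.24 CPM of Celsr2.

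Vangl2 (ENSMUSG00000026556, chr1:172000960-172027318), the core protein whose loss gives mice open neural tubes, was also highest in Müller-like nuclei among the compared classes. Its level was 28.1, 44.8 and 37.3 CPM, from 13, 33 and 45 UMIs. Bipolar-like nuclei had 14.3, 17.7 and 11.2 CPM, and the Müller-like level was 1.96, 2.53 and 3.32 times that. Closer to it were endothelial-like nuclei in the control and at 2 weeks (17.8 and 19.3 CPM, from 3 and 2 UMIs) and amacrine-like nuclei at 4 weeks (28.6 CPM), where the Müller-like level was 1.30 times as high (0.692 to 2.64). Vangl1 (ENSMUSG00000027860, chr3:102153583-102204744), its close relative, had 0, 1 and 0 UMIs in rod-like nuclei. It was highest in the pericyte-smooth muscle-like class with 99.4, 70.4 and 58.8 CPM, from 16, 6 and 8 UMIs. Müller-like nuclei had 19.5, 29.9 and 12.4 CPM of Vangl1, and endothelial-like nuclei 5.95, 9.66 and 21.5 from 1, 1 and 4 UMIs. The ratio of the pericyte-smooth muscle-like to the Müller-like level was 5.10 in the control (2.12 to 13.1), 2.36 at 2 weeks (0.781 to 5.99) and 4.73 at 4 weeks (1.74 to 11.9), so the 2-week interval included 1.

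Celsr3 (ENSMUSG00000023473, chr9:108826023-108852969) was measured at similar levels in several neurons. Rod-like nuclei had 26.6, 37.2 and 32.5 CPM, amacrine-like nuclei 27.9, 43.9 and 28.6, and bipolar-like nuclei 18.7, 37.5 and 18.3. Müller-like nuclei had 17.3, 4.07 and 19.0 CPM, from 8, 3 and 23 UMIs. The rod RNA in that class would carry 7.14, 2.28 and 9.02 CPM of Celsr3 along. Celsr1 (ENSMUSG00000016028, chr15:85898758-86034223) was barely detected. It had 2, 3 and 4 UMIs in Müller-like nuclei and at most 3 in any other class of a library. Peaks within 1000 bases of the Celsr1 starts were called in the 2-week library alone, which also had the most peaks of all, 103911 against 54429 in the control and 75686 at 4 weeks.

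Of the scaffold and effector genes, Daam1 and Scrib were found in every compared class and Daam2 was highest in the pericyte-smooth muscle-like class. Daam1 (ENSMUSG00000034574, chr12:71830950-71992376) had 178, 170 and 237 CPM in amacrine-like nuclei, 164, 158 and 177 in Müller-like nuclei, 196, 124 and 148 in cone-like nuclei, 130, 129 and 140 in bipolar-like nuclei and 109, 102 and 134 in rod-like nuclei. The amacrine-like level was 1.63, 1.67 and 1.77 times the rod-like level. Among the 3 amacrine-like clusters of at least 50 nuclei Daam1 ran from 112 CPM in cluster 22 to 387 CPM in sub-cluster 10.5. Daam2 (ENSMUSG00000040260, chr17:49456022-49564459) had 199 CPM in the pericyte-smooth muscle-like class of the control (136 to 281), 352 at 2 weeks (237 to 502) and 309 at 4 weeks (222 to 417). Müller-like nuclei had 10.8, 13.6 and 14.1 CPM, and rod-like nuclei held 0, 2 and 1 UMIs of Daam2. Daam1 was high in the same class, with 242, 352 and 213 CPM from 39, 30 and 29 UMIs. Scrib (ENSMUSG00000022568, chr15:76047162-76069784) was low throughout, with 13.4, 17.3 and 16.2 CPM in rod-like nuclei and 19.5, 17.7 and 14.9 in Müller-like nuclei.

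Genes with the most similar profile over the 18 combinations of class and library are given for 6 members of at least 300 UMIs. The points share libraries and depth, and 11730 genes were compared, so the correlations of log2(CPM + 10) are a description. For Prickle2 they were Thsd7a (r = 0.977), Plcl1 (0.935) and Ube2e2 (0.929), and for Prickle1 Gtf2ird1 (0.928), Stx3 (0.916) and Ptp4a3 (0.895). For Celsr2 they were Cntfr (0.980), B4galt6 (0.978) and Adam23 (0.976), and for Vangl2 Ltbp3 (0.904), Mxra7 (0.901) and Ankrd10 (0.901). Celsr3 came closest to Bsn (0.926), Cnrip1 (0.918) and Syngr1 (0.910), and Daam1 to Zdhhc21 (0.942), Prkaa2 (0.933) and Chid1 (0.923). Between members r was 0.788 for Vangl2 and Celsr2, -0.780 for Celsr2 and Prickle1, and -0.219 for Prickle1 and Prickle2.

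The next question was how the genes differed between the control and the WIF1 libraries within a class. A member was counted as past the limit when it had at least 30 UMIs in the higher library and a CPM ratio of 2 or more in either direction. At 2 weeks against the control 3 of 28 pairs of member and class with enough UMIs were past it: Vangl2 higher in rod-like nuclei, Celsr3 higher in bipolar-like nuclei and Prickle1 lower in Müller-like nuclei. Of all genes with enough UMIs, 2.77% were 2-fold or more higher in rod-like nuclei, 1.76% were higher in bipolar-like nuclei and 7.78% were lower in Müller-like nuclei. In either direction, 4.55% were past the same limit in rod-like, 4.06% in bipolar-like, 14.4% in Müller-like, 6.38% in cone-like, 8.47% in amacrine-like and 11.1% in endothelial-like nuclei. At 4 weeks against the control 1 of 27 pairs was past it, Vangl2 in rod-like nuclei, where 0.354% of all genes were higher and 1.08% were past the limit in either direction. In the other classes of that comparison the shares of all genes were 2.14% in cone-like, 1.07% in bipolar-like, 8.86% in amacrine-like, 3.62% in Müller-like and 8.9% in endothelial-like nuclei. Between the WIF1 libraries, 4 weeks against 2 weeks, 3 of 25 pairs were past it: Celsr3 lower in bipolar-like nuclei, Celsr2 lower in rod-like nuclei and Prickle1 higher in Müller-like nuclei. Of all genes, 1.75% were lower in bipolar-like, 2.74% lower in rod-like and 11.2% higher in Müller-like nuclei. The shares in either direction were 4.43% in rod-like, 3.2% in bipolar-like, 15.2% in Müller-like, 3.12% in cone-like, 5.37% in amacrine-like and 16.2% in endothelial-like nuclei. The comparisons share libraries pairwise, so they are not independent of each other.

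**Figure D4:**
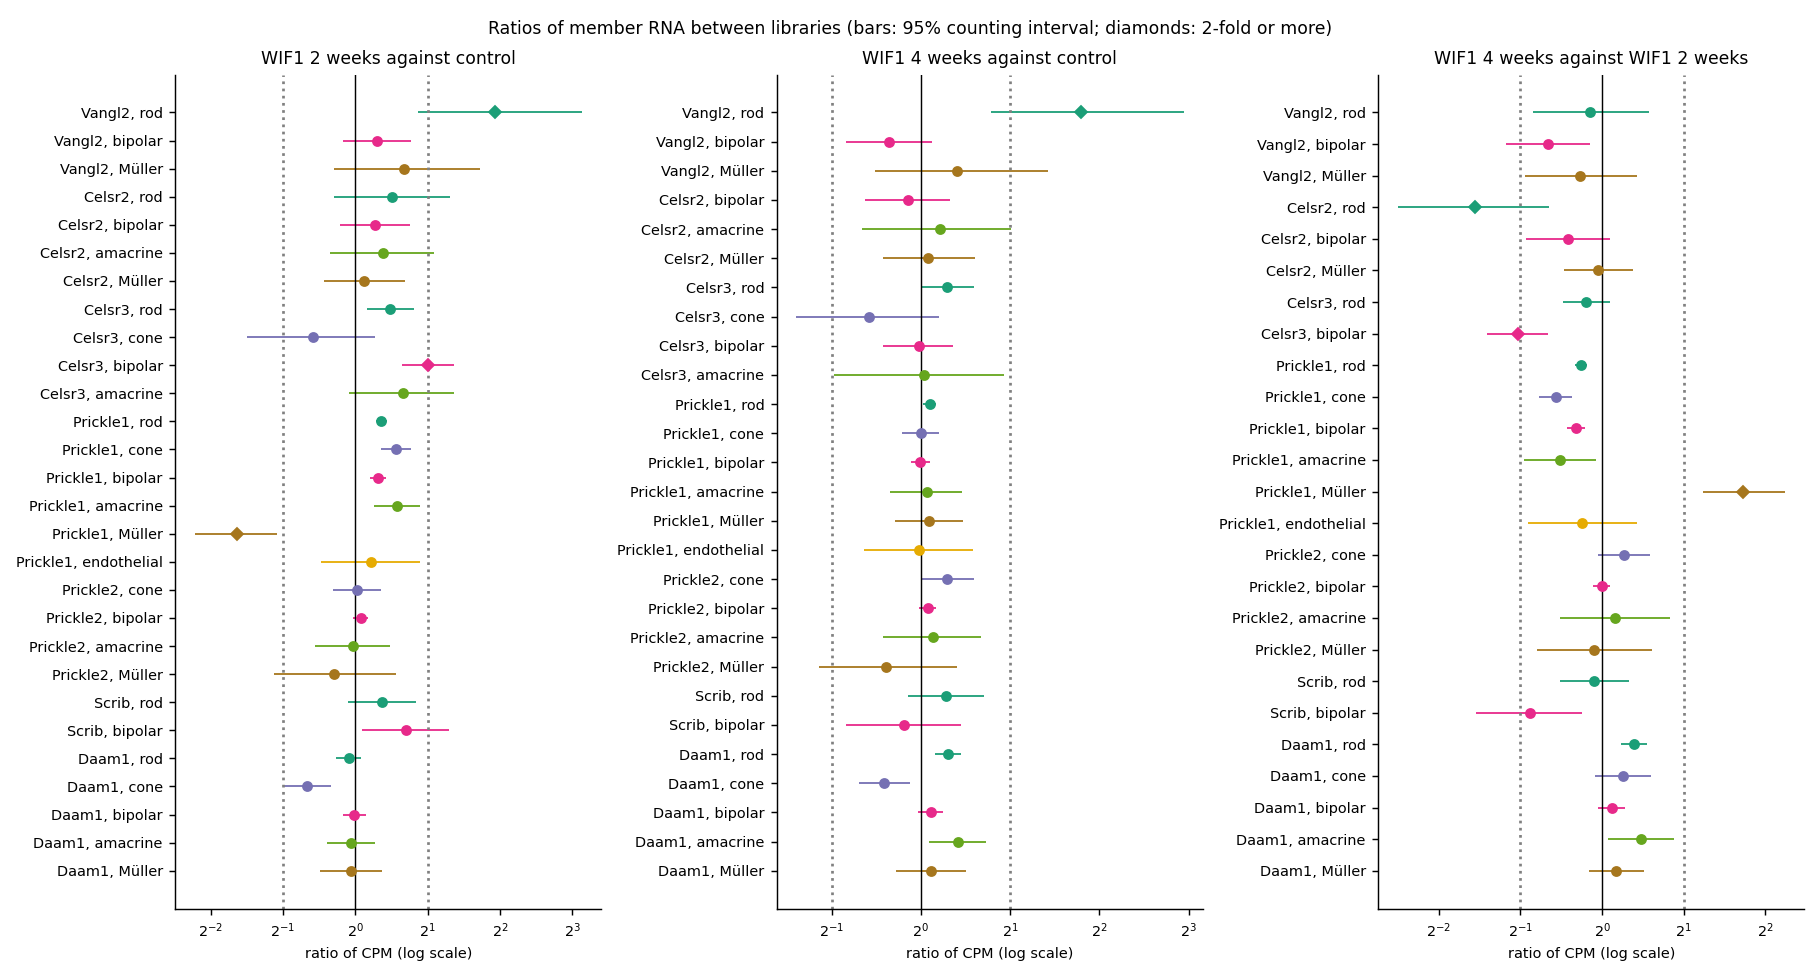
Ratios of member levels between libraries by class, on a log axis, with 95% conditional binomial intervals and lines at the 2-fold limits. Vangl2 in rod-like nuclei lies above 2-fold in both comparisons with the control, and Prickle1 in Müller-like nuclei lies below the lower line at 2 weeks (0.322) and near 1 at 4 weeks.

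Vangl2 in rod-like nuclei had 1.72 CPM in the control (0.822 to 3.15, 10 UMIs), 6.56 at 2 weeks (4.43 to 9.37, 30 UMIs) and 5.93 at 4 weeks (4.33 to 7.93, 45 UMIs). Both WIF1 libraries lay above the control, and their own intervals overlapped. The ratio to the control was 3.83 at 2 weeks (1.82 to 8.77) and 3.46 at 4 weeks (1.72 to 7.69). It stayed past 2-fold in all 11 settings under which the ratio was recomputed (2.59 to 3.97 and 2.12 to 3.76). Those settings draw on the same libraries, and taking off the rod profile, which is among them, cannot change values in rod-like nuclei. The 30 UMIs of Vangl2 at 2 weeks stand exactly at the minimum. The pair was no longer counted in 7 of 13 alternative settings at 2 weeks and in 4 of 13 at 4 weeks. The reason was that fewer UMIs remained or more were asked for. Different rod-like clusters held most nuclei of the libraries: clusters 7 and 1 in the control (1615 and 853 of 4333 nuclei), cluster 5 at 2 weeks (2964 of 5913) and cluster 1 at 4 weeks (2014 of 6251). In the 7 rod-like clusters with at least 50 nuclei in every library, Vangl2 CPM was above the control in 6 at 2 weeks and in 7 at 4 weeks, from few UMIs in each. Of these, clusters 0, 2, 4, 5 and 6 held 0 UMIs of Vangl2 in the control. A WIF1 library could not lie below it there, and 1 UMI was enough to lie above. ATAC counts at the Vangl2 start, from the same nuclei, were 26.9, 57.5 and 39.7 promoter CPM. These are ratios of 2.14 (1.88 to 2.43) and 1.48 (1.29 to 1.69), where 9.28% and 5.21% of gene starts with enough counts were past 2-fold in rod-like nuclei. In bipolar-like nuclei the same start had 82.5, 92.9 and 90.4 promoter CPM, and in cone-like nuclei 70.3, 85.3 and 73.8. The RNA of Vangl2 in cone-like nuclei rested on 4, 12 and 9 UMIs.

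Celsr3 in bipolar-like nuclei had 18.7 CPM in the control (15.5 to 22.3, 121 UMIs), 37.5 at 2 weeks (31.6 to 44.2, 144 UMIs) and 18.3 at 4 weeks (15 to 22.2, 103 UMIs). The 2-week library alone stood apart, with a ratio of 2.01 to the control (1.57 to 2.58) and of 0.489 for 4 weeks against 2 weeks (0.380 to 0.630). The ratio to the control was past 2-fold in 5 of 11 alternative settings, and the other one in 7. The Celsr3 level in rod-like nuclei was 1.40 times the control at 2 weeks. Scrib in bipolar-like nuclei was 7.71, 12.5 and 6.76 CPM, a ratio of 1.62 at 2 weeks that lay below the limit. Celsr2 in rod-like nuclei had 27, 30 and 17 UMIs and a ratio of 0.341 for 4 weeks against 2 weeks. This pair reached the minimum of 30 UMIs only through the 2-week library, and exactly. It was no longer counted in 5 of 13 alternative settings, among them the one without the nucleus that held most of its UMIs.

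Prickle1 in Müller-like nuclei had 173 CPM in the control (137 to 215, 80 UMIs), 55.7 at 2 weeks (40.0 to 75.5, 41 UMIs) and 184 at 4 weeks (160 to 210, 222 UMIs). The 2-week level was 0.322 times the control (0.215 to 0.474), and the 4-week level 3.30 times the 2-week level (2.36 to 4.73). The RNA of rods, where Prickle1 is highest, moved with this: it was 26.9%, 6.14% and 27.7% of the Müller-like UMIs. By that share it would carry 125, 36.6 and 138 CPM of Prickle1 along, which is most of the level in each library. With the rod profile taken off, 65.4, 20.3 and 63.0 CPM were left, a ratio of 0.310 at 2 weeks and of 3.11 for 4 weeks against 2 weeks. These levels rest on 22.3, 14.1 and 55.2 UMIs, with the class totals lowered as well. The 2-week pair then lay below the minimum of 30 UMIs and was not counted. When nuclei were named by their highest marker score instead of by cluster, the ratios were 0.865 and 1.28, and at clustering resolution 2 they were 0.564 and 1.45, none of them past the limit. The part of rod RNA in this difference was not tested.

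**Figure D5:**
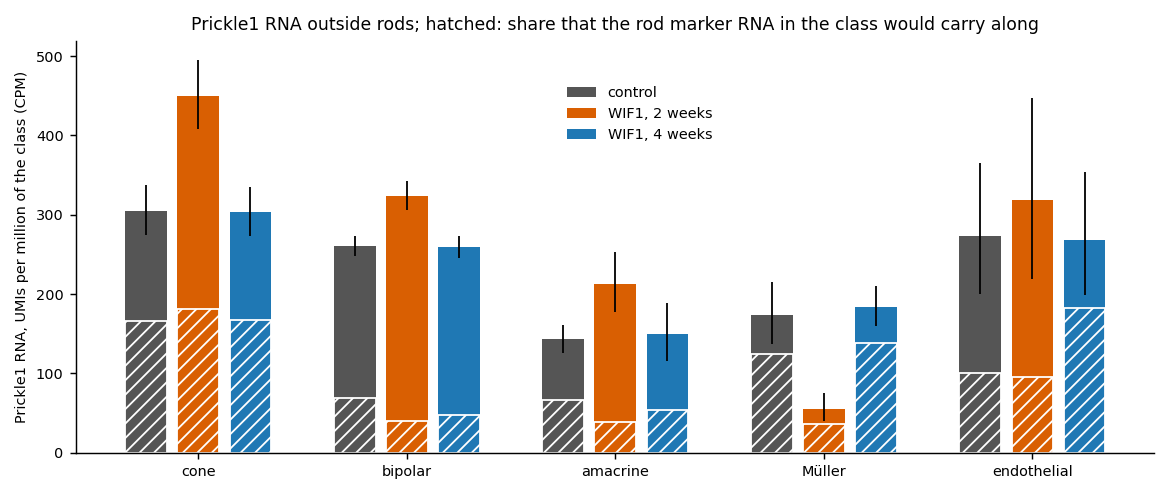
Prickle1 levels outside rods, in CPM by class and library with 95% Poisson intervals, with the hatched part showing the level that rod RNA in the class would carry along. In Müller-like nuclei the hatched part is 125 of 173, 36.6 of 55.7 and 138 of 184 CPM, and in bipolar-like nuclei it is 68.8 of 260, 40.0 of 324 and 47.1 of 259 CPM.

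In the neurons Prickle1 was higher at 2 weeks and by less than 2-fold. Its ratio to the control was 1.28 in rod-like, 1.48 in cone-like, 1.24 in bipolar-like and 1.49 in amacrine-like nuclei, each with an interval above 1. In 7 of 7 rod-like clusters with at least 50 nuclei in every library it was above the control at 2 weeks, and in 3 of 7 at 4 weeks. These clusters are parts of the same libraries and are not replicates. Of the clusters below that size, cluster 3 was lower at 2 weeks (545 CPM in the control, 507 at 2 weeks). Clusters 8, 10.1 and 29 were higher. The largest control cluster of rods, cluster 7, had 392, 450 and 406 CPM. At the Prickle1 starts ATAC did not rise with the RNA: rod-like nuclei had 256, 209 and 227 promoter CPM over both starts, and bipolar-like nuclei 199, 167 and 174. Prickle2 in bipolar-like nuclei stayed between 315 and 332 CPM. Its peaks at the outermost and innermost starts there summed to 49.9, 51.4 and 53.5 promoter CPM, without the middle start. Daam1 in rod-like nuclei was 1.23 times the control at 4 weeks, and in cone-like nuclei it had 196, 124 and 148 CPM, 0.630 times the control at 2 weeks and 0.753 times at 4 weeks. In amacrine-like nuclei Daam1 was 1.33 times the control at 4 weeks, and the make-up of that class differed: sub-clusters 10.0, 10.3 and 10.8 held 36, 33 and 26 of 360 nuclei in the control and 0 of 116 at 4 weeks.

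Over the members tested, the median log2 ratio at 2 weeks against the control was 0.43 in rod-like nuclei (6 members, 5 above the control) and 0.30 in bipolar-like nuclei (7 members, 6 above). Over all genes these medians were 0.04 and 0.00. A member with few UMIs is tested only where either library reaches 30, which favours the direction of that library. In rod-like nuclei Vangl2 (10, 30 and 45 UMIs) and Celsr2 (27, 30 and 17) passed at 2 weeks only through the WIF1 library. At 4 weeks Vangl2 again passed that way, and Celsr2, lower than the control, was not tested. Celsr3 in cone-like nuclei (35, 18 and 24) passed through the control alone. At 4 weeks the members' medians were 0.29 in rod-like (5 members) and -0.03 in bipolar-like nuclei (7 members). The medians went the other way in cone-like nuclei, at -0.28 (4 members, 2 above) and -0.21 (4 members, 1 above) at 2 and 4 weeks. In Müller-like nuclei they were -0.06 (5 members, 2 above) and 0.09 (5 members, 4 above), and in amacrine-like nuclei 0.39 (5 members, 3 above) and 0.14 (5 members, 5 above). Of the libraries the 2-week one had the lowest depth, with a median of 695 UMIs a rod-like nucleus against 1162 in the control and 1026 at 4 weeks.

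At gene starts, 10 of 112 tests of a member's promoter peaks in a class were past 2-fold over the 3 comparisons, 5 of 38 at 2 weeks against the control. Besides Vangl2 in rod-like nuclei these were Prickle2 (ratio 0.0780) and Daam2 (0.427) in rod-like nuclei and Vangl1 (5.50, from 48 and 4 counts) and Celsr3 (0.288) in Müller-like nuclei. The shares of all gene starts past that limit were 9.28% in rod-like, 11.2% in Müller-like, 2.81% in bipolar-like, 3.2% in cone-like and 5.49% in amacrine-like nuclei. Of the 4-week promoter ratios to the control, 2 of 37 were past it, Prickle2 (0.290) and Daam2 (0.391) in rod-like nuclei, where 5.21% of all starts were. The other shares of starts there were 5.73% in Müller-like, 2.45% in bipolar-like, 2.13% in cone-like and 6.78% in amacrine-like nuclei. The rod-like counts behind Prickle2 were 31, 6 and 23, from the outermost and innermost starts. The middle start, which is not in these ratios, held 9, 8 and 28 rod-like counts. For 4 weeks against 2 weeks 3 of 37 were past it, all in Müller-like nuclei, with 17.3% of all starts: Vangl1 (0.224), Celsr3 (2.86) and Prickle2 (0.416). In the other classes it was 4.91% in rod-like, 2.75% in bipolar-like, 2.18% in cone-like and 4.87% in amacrine-like nuclei. Peaks were called in each library on its own, and their number differed.

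The other 43 genes of the branch were measured in the same way. At 2 weeks against the control 8 of 135 pairs of gene and class were past the limit, 7 higher and 1 lower, against the shares of all genes given above. In Müller-like nuclei these were the Wnt5a receptors Ror1 (2.09-fold) and Ror2 (2.75-fold), the co-receptor Ptk7 (4.52-fold) and the Dishevelled gene Dvl3 (2.51-fold). Dvl1 was higher in cone-like (2.28-fold) and amacrine-like nuclei (2.07-fold), the kinase gene Mink1 was higher in cone-like nuclei (2.60-fold), and the effector gene Rock1 was lower in endothelial-like nuclei (0.490 times). Against the control, 8 of 142 pairs were past it at 4 weeks, 4 in each direction. The higher ones were the ligand gene Wnt5b (3.01-fold) and Dvl3 (2.39-fold) in Müller-like nuclei, the cadherin gene Fat4 in amacrine-like (2.68-fold) and Mink1 in cone-like nuclei (2.31-fold). The lower ones were Mapk10 in rod-like (0.417 times), Llgl1 in amacrine-like (0.392 times, 0.102 to 1.08), and Ror1 (0.461 times) and Fat4 (0.496 times) in bipolar-like nuclei. Between the WIF1 libraries 13 of 138 pairs were past it, 3 higher and 10 lower, against the shares of all genes given above. The 8 of largest size were, among the lower ones, Ror2 (0.342 times), Dvl1 (0.452 times) and Ror1 (0.462 times) in Müller-like nuclei, Mapk10 in rod-like (0.347 times), Dvl1 in cone-like (0.347 times) and Ptk7 in bipolar-like nuclei (0.446 times). The higher ones among them were the Scribble partners Llgl2 in Müller-like (2.67-fold) and Dlg1 in endothelial-like nuclei (2.40-fold).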

How the data were processed

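Each deposited matrix holds raw counts, UMIs of genes and ATAC counts of peaks in every called barcode, per the file headers. Cell Ranger ARC 2.0.1 and mm10 are named in the submitters' processing notes, as are Seurat 5.0.1 and Signac 1.12.0, without roles. Peaks were called per library by the authors. RNA totals were 21805441, 14568384 and 19997276 UMIs in 8556, 13528 and 10334 barcodes of the control, 2-week and 4-week library.

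From these counts, nuclei of at least 500 UMIs, 300 genes and at most 10% mitochondrial UMIs were kept, and 511, 1053 and 716 nuclei scored highest as doublets (an expected 0.8% per 1000 barcodes) were removed. Clustering used scanpy 1.11.5 (2000 genes, 30 components, 15 neighbours, Leiden resolution 1) without the members and the 43 other branch genes. A cluster needed 3 enriched class markers and a sub-cluster 4, and these naming limits were set after clusters were seen. By them 179, 73 and 84 nuclei stayed unnamed. A difference from the study's own cell types may come from the rebuilt names. Class sums have exact Poisson intervals, and ratios have exact conditional binomial intervals (scipy 1.17.1). Because each group has 1 library, no test and no p-value was computed. Promoter counts are those in peaks within 1000 bases of a gene's first or last start in the feature tables. Gene spans and sequences are RefSeq's for GRCm38.p6, and upstream sequences were matched for 7 of the 10 members.

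All 10 members are named. Other branch genes are named when past 2-fold with at least 30 UMIs, at most 8 a comparison by size, and 3 genes are named per member of at least 300 UMIs by correlation, which for Scrib are not reported here. The members, gene lists and marker lists were chosen with earlier results of these data known. Alternatives changed the depth minimum, the count minimum, the scaling, the doublet step, the clustering resolution, the naming and the promoter window. The ratio and interval steps were tested on simulated data.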

Additional observations from a re-analysis of the deposited data

Results flagged for a closer look

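For Prickle1 the direction differed between classes in the same comparison. At 2 weeks against the control its ratio was 1.28 in rod-like, 1.48 in cone-like, 1.24 in bipolar-like and 1.49 in amacrine-like nuclei, and 0.322 in Müller-like nuclei. At 4 weeks against 2 weeks it was 0.837, 0.675, 0.801 and 0.702 in the same neurons and 3.30 in Müller-like nuclei. Daam1 at 4 weeks against the control was 1.23 in rod-like and 1.33 in amacrine-like nuclei and 0.753 in cone-like nuclei. Each of these intervals lies on 1 side of 1, with 1 library a group, and the differences between classes were not tested.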

How the results depend on the processing

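No paired analysis was possible because each group had 1 library. Counts of members past 2-fold (3, 1 and 3 for 2 weeks against control, 4 weeks against control and 4 weeks against 2 weeks) stayed within 1.5 times in 24 of 39 repeats under other settings, and no member named as past 2-fold reversed its direction. A minimum of 10 UMIs gave 4 and 5 for the latter pair of comparisons, and a minimum of 100 gave 1 and 0 for the comparisons with the control. Naming nuclei by their highest marker score gave 1, 3 and 1, resolution 2 gave 1 at 2 weeks and 1 for 4 weeks against 2 weeks, and nuclei of at least 1000 UMIs gave 1, 0 and 1. Naming at resolution 2 with its own background, chosen after seeing the data, gave 1, 0 and 0. The cause was not tested. Over 11 alternatives the Vangl2 ratio in rod-like nuclei ranged from 2.59 to 3.97 at 2 weeks and from 2.12 to 3.76 at 4 weeks, and with the count minimum it was counted in 6 and 9 of 13. Taking off the rod profile, which is among the alternatives, cannot change values in rod-like nuclei. The Celsr3 ratio in bipolar-like nuclei at 2 weeks was 1.82 to 2.19, past 2-fold in 5 of 11. The Prickle1 ratio in Müller-like nuclei was 0.310 to 0.865 at 2 weeks and 1.28 to 3.49 for 4 weeks against 2 weeks, and Celsr2 in rod-like nuclei was 0.165 to 0.540. The classes with the highest levels of Vangl2, Celsr2, Prickle1 and Prickle2 were the same in all 3 libraries in the 4 alternatives run for levels. Depth limits Celsr1, Vangl1 and Daam2, of which no class compared between libraries had 30 UMIs.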

Other observations

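Lymphocyte-like nuclei, 115 of which came from the 2-week library, drew 71.2% of their UMIs there from rods by the rod marker genes, and no member level is read from them. Horizontal-like nuclei, 25 in the control and 20 at 2 weeks, held 306 and 371 CPM of Prickle1 beside the Prickle2 levels given above, and 20.4 and 34.4 CPM of Celsr2. The 4-week library had 0 nuclei named as horizontal-like.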
